A study of Mus musculus with 24 samples.

Results

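The growth hormone, IGF1 and insulin receptor axis was taken as 7 genes: Igf1, Igfals, Ghr, Igf1r, Insr, Irs1 and Irs2. Members were found by gene name among the non-control probes of a 1-colour mouse expression array, which gave 17 probes of 56605. All 7 genes and all 17 probes passed the filter on dim signals. The axis was read in mammary glands of 4 groups of C57BL/6 females: day 18 of pregnancy with the homozygous Socs2 R96C knock-in allele (n = 5), day 18 with wild-type Socs2 (n = 5), knock-in virgins aged 8 weeks (n = 7) and wild-type virgins aged 8 weeks (n = 7). Each array held RNA of the whole inguinal (number 4) gland of 1 numbered mouse, after its lymph node was taken out. An array cannot read a point mutation, so the genotypes rest on the labels. The labels used here give no age for the pregnant mice, so pregnancy and age cannot be told apart.

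Growth hormone acts through its receptor GHR, which starts the kinase JAK2 and the transcription factor STAT5, and the secreted factor IGF1 is a well-known product of this signal. IGF1 and insulin act through the receptor tyrosine kinases IGF1R and INSR, which pass the signal to the docking proteins IRS1 and IRS2 and on to PI3K and AKT. IGFALS, the acid-labile subunit, joins IGF1 and a binding protein in a large complex that lengthens the stay of IGF1 in blood. SOCS2 is a feedback inhibitor that binds the activated growth hormone receptor through its SH2 domain, where the R96C change lies. In the mammary gland, growth hormone acts on stroma and IGF1 made there drives ductal growth.

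Levels below are log2 processed signals with the 75th percentile of each array set to 0. They compare groups for 1 probe and do not rank genes against each other. A gene was called at a Benjamini-Hochberg adjusted p under 0.05 in a limma fit over 22382 genes. One array stood apart. Knock-in virgin mouse 376 had a mean negative-control signal of 332 and 57003 spots well above background, against 19.4 to 41.4 and 33374 to 43055 on the other arrays. Tissue content varied as well: knock-in virgin mouse 198 had a mean log2 level of -3.89 over 10 luminal markers and 8.26 over 7 skeletal muscle markers. The muscle score also reached 6.52 in a knock-in gland at day 18 and 7.30 in a wild-type virgin. Values without mouse 376 are given beside the main knock-in results of the members, but not for the fits with marker scores as covariates. Each of the 3 slides held all 4 groups. At day 18, mouse 206 was the only wild-type mouse on its slide and mouse 211 the only knock-in mouse on its slide. The within-slide values below thus rest on few mice.

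At day 18 of pregnancy, 6 of the 7 genes differed from virgins in each genotype. Igf1, Ghr, Insr and Igf1r fell, and Igfals and Irs2 rose, while Irs1 did not pass the test. The background was high: 43.2% of genes were called between stages in knock-in glands and 41.8% in wild-type glands. A rise was called for 22.9% and a fall for 20.3% of genes in knock-in glands. In wild-type glands a rise was called for 20.9% and a fall for 20.9%. The median log2 stage difference of the 7 genes was -0.52 in knock-in and -0.53 in wild-type glands, beside 0.05 and 0.01 over all genes. The same 6 of 7 were called without mouse 376, when 55.3% of all genes were called in knock-in and 57.3% in wild-type glands. They were also called without mice 376, 184 and 198 together, when these shares were 54.5% and 60.1%. The genotype comparisons called no member, as given further on.

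**Figure D1:**
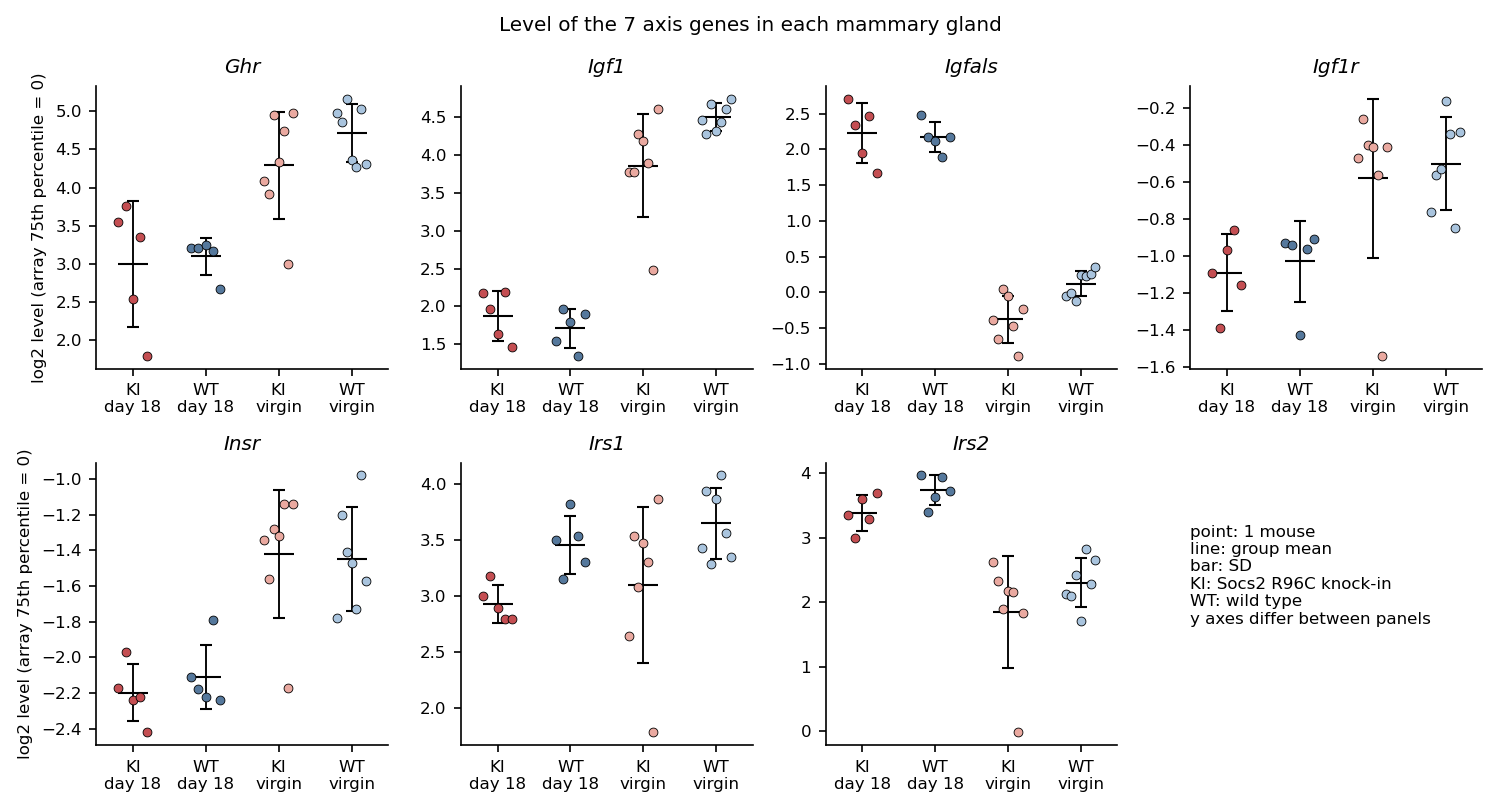
Log2 level of each of the 7 genes (y axis, array 75th percentile at 0, scales differing between panels) in every mouse, with group mean and SD, for knock-in (KI) and wild-type (WT) glands at day 18 and in virgins. Igf1 lies lower and Igfals and Irs2 lie higher at day 18 in both genotypes, and the lowest of the 7 knock-in virgins is mouse 376 in every panel.

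Igf1, the ligand of the axis, showed the largest fall of the 7. In the 5 knock-in glands at day 18 its log2 level was 2.19, 1.63, 1.97, 1.46 and 2.18, and in the 7 knock-in virgins it ran from 2.48 through a median of 3.89 to 4.60. In wild-type glands the day 18 levels were 1.35, 1.80, 1.54, 1.96 and 1.90, against a lowest, median and highest of 4.28, 4.46 and 4.74 in virgins. Day 18 and virgin glands did not overlap in either genotype, whereas the genotypes overlapped at each stage. Wild-type virgins were the highest of the 4 groups and the most even, with 4.50 ± 0.18 (SD, n = 7) against 3.86 ± 0.68 in knock-in virgins. The stage difference was -1.97 ± 0.25 (SE) in knock-in glands, a 3.92-fold fall with adjusted p = 1.3e-06, and -2.20 (adjusted p = 6.11e-10) without mouse 376. In wild-type glands it was -2.79 ± 0.25, a 6.91-fold fall with adjusted p = 1.05e-08. The exact permutation test gave p = 0.00126 in each genotype, the smallest that its 792 splits allow for groups without overlap. Within slides the difference ran from -2.23 to -1.56 in knock-in and from -2.99 to -2.56 in wild-type glands. These are whole glands, so fewer cells of a type and less RNA per cell cannot be told apart, here and for each gene below.

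The 3 Igf1 probes differed. The gene's own probe lies at chr10:87393516-87393575 (mm9, plus strand). A second probe, A_52_P306327, lies 68134 bases upstream of it and had log2 stage differences of -1.94 in knock-in and -3.02 in wild-type glands, with adjusted p = 0.000144 and 6.94e-07 over 35117 probes. At day 18 it was well above background in all 5 knock-in glands but in 3 of 5 wild-type glands, so its wild-type fall rests partly on dim spots. The remaining probe, A_55_P2085979, lies 15060 bases upstream of the gene's own probe. Its levels at day 18 were 0.03, -0.37, 0.31, -0.26 and -0.01 in knock-in glands, beside a range of 0.15 to 0.68 in knock-in virgins. In wild-type glands they were -0.29, 0.08, 0.35, -0.36 and 0.14 at day 18, beside -0.05 to 0.87 in virgins. Its stage differences of -0.35 (adjusted p = 0.122) and -0.27 (adjusted p = 0.244) did not pass, and its groups overlapped. The stage difference of the gene's own probe minus that of A_55_P2085979 was -1.62 in knock-in (exact permutation p = 0.00505) and -2.52 in wild-type glands (exact permutation p = 0.00126). Of 40 such probe differences computed over 4 genes, none stayed under 0.05 after Benjamini-Hochberg adjustment over the 40; the wild-type Igf1 difference had 0.0504. Which Igf1 transcripts each probe reads was not analysed here.

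Igfals, which codes for the acid-labile subunit and is known mainly from liver, rose at day 18. The 60-base probe that reads it lies at chr17:25018251-25018310 (mm9, plus strand), and is shown because the largest rise of the axis rests on this oligo alone.
Igfals probe: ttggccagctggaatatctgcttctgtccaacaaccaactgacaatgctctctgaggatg
Igfals had log2 levels of 2.47, 1.95, 2.35, 1.67 and 2.71 in knock-in glands at day 18, against -0.89 to 0.04 with a median of -0.39 in knock-in virgins. In wild-type glands the levels were 1.89, 2.12, 2.49, 2.17 and 2.17 at day 18, against -0.13 to 0.35 with a median of 0.22 in virgins. Every day 18 gland was above every virgin gland. The stage difference was 2.61 ± 0.18 in knock-in glands (6.1-fold, adjusted p = 2.39e-10; 2.52 without mouse 376) and 2.04 ± 0.18 in wild-type glands (4.12-fold, adjusted p = 1.2e-08). Exact permutation gave p = 0.00126 in each genotype. Within slides the rise ran from 2.46 to 2.77 in knock-in and from 1.90 to 2.39 in wild-type glands. Its size depended on the processing. Under 42 alternatives of processing or with arrays left out, it ran from 1.77 to 3.21 in knock-in and from 1.13 to 2.54 in wild-type glands. Of 4 hepatocyte markers, Alb fell by 2.36 and 1.31 and Serpina1a fell by 2.43 and 2.12 in knock-in and wild-type glands on the log2 scale. The other hepatocyte markers, Apoa1 and Ttr, were well above background on at most 2 of 24 arrays.

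Among the members with a promoter window in the RefSeq table (GRCm38.p6), Igfals was the 1 whose window held the letters TTCNNNGAA, the core that STAT5 is known to bind and which reads the same on both strands. Windows ran from 250 bases before to 50 bases after a transcript start, and 9 windows of 6 members were searched, with Insr not matched. The motif stood in 2 of the 3 Igfals windows and in none of those of Igf1, Ghr, Igf1r, Irs1 or Irs2; over all 32851 windows of the table, 8.3% held it. Cish, a STAT5 target whose product also restrains cytokine receptors and which rose at day 18, is shown beside it, with the motif in capitals.
Igfals, chr17:24877597-24877626, plus strand, motif at -236 from the start: cgatctataatTTCTCAGAAaagaggctga
Igfals, chr17:24878162-24878191, plus strand, motif at -58 from the start: tctgccaggtgTTCCTAGAAgaggccctgg
Cish, chr9:107296648-107296677, plus strand, motif at 1 from the start: cccgcccagttTTCCTGGAAagttcttgga
A second Cish match begins at position 12 and does not overlap the first. Socs1, Socs2 and Socs3 were also looked up: Socs3 held 1 match, Socs1 none, and Socs2 was not matched to a window. At day 18 Socs3 differed from virgins by 0.98 in knock-in (adjusted p = 0.00439) and by 0.06 in wild-type glands (adjusted p = 0.895), and Socs1 fell in both. Socs3 was not called in any genotype comparison, nor for the difference of the genotype effects between stages. A match of letters describes the window and is not a measured binding site.

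Ghr codes for the growth hormone receptor and, through a shorter transcript, for the soluble growth hormone binding protein of mice. Its log2 levels at day 18 were 3.35, 2.54, 3.76, 1.80 and 3.55 in knock-in glands, against 3.0 to 4.98 with a median of 4.33 in knock-in virgins. In wild-type glands they were 3.17, 3.25, 3.21, 3.21 and 2.67 at day 18, against 4.27 to 5.16 with a median of 4.86 in virgins. The stages overlapped in knock-in glands and did not overlap in wild-type glands. Ghr fell by 1.29 ± 0.33 on the log2 scale in knock-in glands (2.44-fold, adjusted p = 0.00286; exact permutation p = 0.0177). In wild-type glands it fell by 1.61 ± 0.33 (3.05-fold, adjusted p = 0.000399; exact permutation p = 0.00126). Without mouse 376, the lowest knock-in virgin, the knock-in difference was -1.50 (adjusted p = 0.000167). The lowest knock-in gland at day 18, mouse 239, also had the lowest Igf1 and Igfals levels and the lowest white adipocyte score of its group.

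Ghr was read by 3 further probes, and 1 of them is shown because its 60 bases are placed over 7453 bases of the genome, chr15:3283509-3290961 (mm9, minus strand), and so are not contiguous there.
Ghr probe A_52_P680941: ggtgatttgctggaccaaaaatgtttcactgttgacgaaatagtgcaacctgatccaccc
This probe gave stage differences of -1.41 in knock-in (adjusted p = 0.00251) and -1.43 in wild-type glands (adjusted p = 0.00232), close to those of the gene's own probe. It is annotated in the files to transcript variant 2, the form known for the binding protein, and so is probe A_55_P2500473. Which Ghr transcripts each probe reads was not analysed here. The probe differences below are thus not a comparison of receptor and binding-protein transcripts. Probe A_55_P2500473 fell by 1.22 in knock-in (adjusted p = 0.00204) and by 1.37 in wild-type glands (adjusted p = 0.000791). The stage differences of the gene's own probe minus this probe were -0.06 in knock-in (exact permutation p = 0.744) and -0.24 in wild-type glands (exact permutation p = 0.355), so no difference between these probes was detectable. Those of the gene's own probe minus A_52_P680941 were 0.13 in knock-in (exact permutation p = 0.393) and -0.18 in wild-type glands (exact permutation p = 0.467). The last probe, A_52_P633550, differed by -0.37 in knock-in (adjusted p = 0.51) and by -1.03 in wild-type glands (adjusted p = 0.045), with overlapping groups.

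Igf1r, the receptor of IGF1, changed least among the called genes. Its log2 levels at day 18 were -0.86, -0.97, -1.39, -1.16 and -1.09 in knock-in glands, against -1.54 to -0.26 with a median of -0.41 in knock-in virgins. In wild-type glands they were -0.96, -1.43, -0.93, -0.94 and -0.91 at day 18, against -0.85 to -0.16 with a median of -0.53 in virgins. The wild-type stages did not overlap, by a narrow gap, and the knock-in stages overlapped through mouse 376. Igf1r fell by 0.52 ± 0.19 in knock-in (adjusted p = 0.0315; exact permutation p = 0.0354) and by 0.53 ± 0.19 in wild-type glands (adjusted p = 0.029; exact permutation p = 0.00253). These calls were close to the threshold: quantile normalization turned the knock-in value to 0.11 (adjusted p = 0.918). The knock-in value was -0.68 (adjusted p = 0.000143) without mouse 376. The knock-in call was lost without any 1 of the knock-in mice 196, 198, 251, 313, 384, 184, 239 and 183, and the wild-type call without wild-type mouse 318, 320 or 233. All 3 further Igf1r probes had negative stage differences in both genotypes, from -0.92 to -0.76 in knock-in and from -0.87 to -0.60 in wild-type glands. Of these, 3 passed in knock-in and 2 in wild-type glands over all probes.

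Insr codes for the insulin receptor. Its log2 levels at day 18 were -2.22, -2.24, -1.97, -2.42 and -2.17 in knock-in glands, against -2.17 to -1.14 with a median of -1.32 in knock-in virgins. In wild-type glands they were -1.79, -2.22, -2.11, -2.18 and -2.24 at day 18, against -1.78 to -0.98 with a median of -1.47 in virgins. The knock-in stages overlapped through mouse 376 alone, and the wild-type stages were separated by 0.01. Insr fell by 0.78 ± 0.18 in knock-in (1.72-fold, adjusted p = 0.000917; exact permutation p = 0.00758) and by 0.66 ± 0.18 in wild-type glands (1.58-fold, adjusted p = 0.00413; exact permutation p = 0.00253). The knock-in difference was -0.91 (adjusted p = 6.89e-06) without mouse 376. Its other probes, A_52_P6490 and A_52_P489068, also had negative differences, from -1.18 to -0.91, but did not pass and were well above background on 19 and 18 of the 24 arrays. Under normexp background correction the Insr differences were -0.37 and -0.36 (adjusted p = 0.12 and 0.119) in knock-in and wild-type glands, and under quantile normalization -0.13 and -0.51 (adjusted p = 0.905 and 0.646).

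The 2 docking proteins parted. Irs2, which couples both receptors to PI3K, rose at day 18, and it is read by a single 60-base probe at chr8:11004490-11004549 (mm9, minus strand), shown because no second probe checks the rise.
Irs2 probe: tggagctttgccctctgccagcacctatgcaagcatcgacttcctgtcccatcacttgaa
Irs2 had log2 levels of 3.29, 3.60, 2.99, 3.69 and 3.35 in knock-in glands at day 18, against -0.02 to 2.63 with a median of 2.15 in knock-in virgins. In wild-type glands they were 3.94, 3.64, 3.97, 3.40 and 3.73 at day 18, against 1.70 to 2.82 with a median of 2.28 in virgins. All day 18 glands were above all virgin glands of the same genotype. The rise was 1.53 ± 0.31 in knock-in (2.89-fold, adjusted p = 0.000346) and 1.44 ± 0.31 in wild-type glands (2.71-fold, adjusted p = 0.000664), with exact permutation p = 0.00126 in each. Without mouse 376, the lowest knock-in virgin, the knock-in rise was 1.22 (adjusted p = 9.47e-06). The wild-type call was lost under spike-in scaling (0.52, adjusted p = 0.129) and median scaling (1.61, adjusted p = 0.0546). Within slides it ran from 1.19 to 1.93 in knock-in and from 1.17 to 1.77 in wild-type glands.

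Irs1, the other docking protein, had log2 levels of 2.79, 2.89, 3.18, 2.79 and 3.0 in knock-in glands at day 18, against 1.78 to 3.87 with a median of 3.30 in knock-in virgins. In wild-type glands they were 3.54, 3.82, 3.50, 3.15 and 3.30 at day 18, against 3.29 to 4.08 with a median of 3.56 in virgins. The stages overlapped in both genotypes. Its stage differences were -0.17 ± 0.26 in knock-in (95% interval -0.70 to 0.37, adjusted p = 0.639) and -0.18 ± 0.26 in wild-type glands (-0.71 to 0.35, adjusted p = 0.609). Without mouse 376, the lowest knock-in virgin, the knock-in difference was -0.39 (adjusted p = 0.0887). Irs1 was called lower in knock-in glands under quantile normalization (-0.47, adjusted p = 0.0441), and in both genotypes under spike-in scaling, at -1.0 in knock-in (adjusted p = 0.00437) and -1.10 in wild-type glands (adjusted p = 0.00178). Within slides they ran from -0.89 to 0.32 in knock-in and from -0.54 to 0.07 in wild-type glands.

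**Figure D2:**
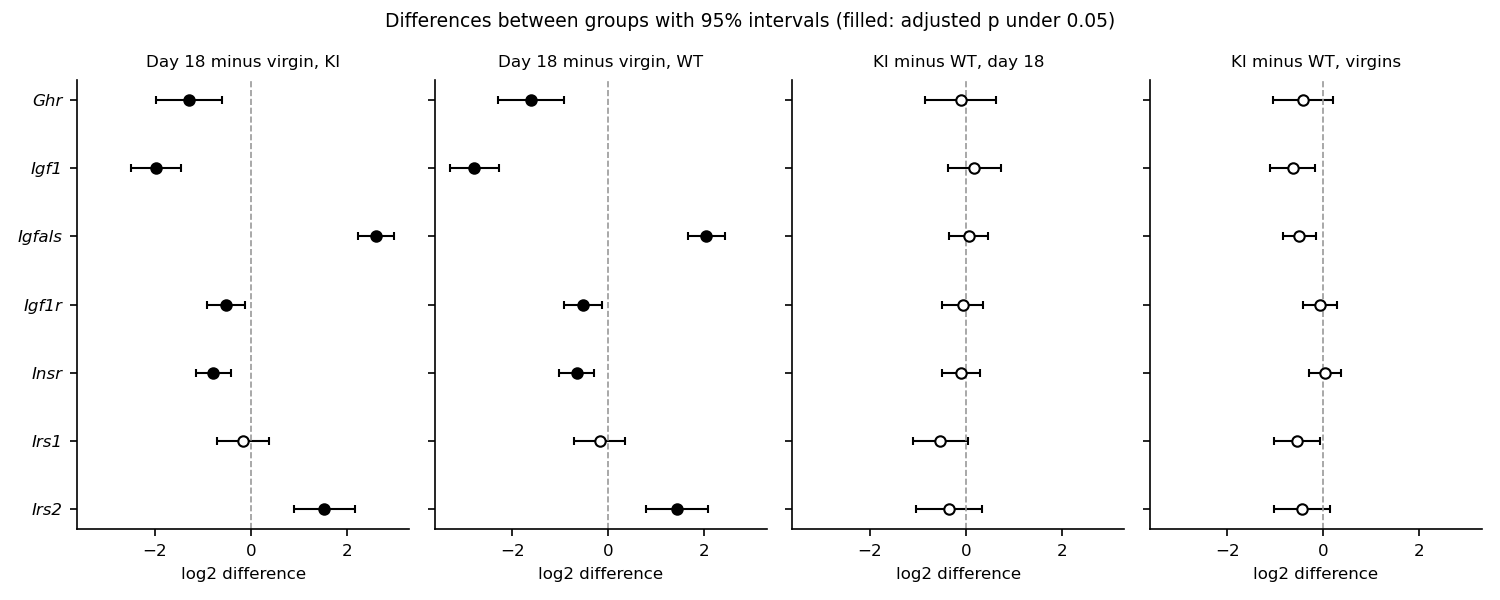
Log2 difference (x axis) with its 95% interval for each of the 7 genes in the 2 stage comparisons and the 2 genotype comparisons, with filled points at an adjusted p under 0.05. In both stage panels 6 points are filled, from Igf1 at -1.97 (KI) and -2.79 (WT) to Igfals at 2.61 (KI) and 2.04 (WT), and in the genotype panels none is.

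The order of the 4 group means differed by gene. For Igf1, Ghr and Igf1r, wild-type virgins were highest and knock-in virgins next, and for Insr the virgins were also on top, at -1.42 in knock-in and -1.45 in wild-type virgins. For Igfals and Irs2 both day 18 groups were above both virgin groups. For Irs1 the order followed genotype, with 3.65 in wild-type virgins, 3.46 in wild-type glands at day 18, 3.10 in knock-in virgins and 2.93 in knock-in glands at day 18. Groups next to each other in these orders overlapped, except at the step between the stages for Igf1, Igfals, Irs2 and Insr.

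Across all 17 member probes, 12 were called between stages in each genotype, with 2 higher and 10 lower in both. Over all 35117 probes, 39.5% were called in knock-in glands (19.3% higher and 20.2% lower) and 38.9% in wild-type glands (18.2% higher and 20.7% lower). The 14 probes of Igf1, Ghr, Igf1r and Insr all had negative stage differences in both genotypes. The exceptions to a call were the Igf1 probe A_55_P2085979 and the 2 dim Insr probes in both genotypes, A_52_P633550 of Ghr in knock-in glands, A_52_P668647 of Igf1r in wild-type glands, and the Irs1 probe.

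**Figure D3:**
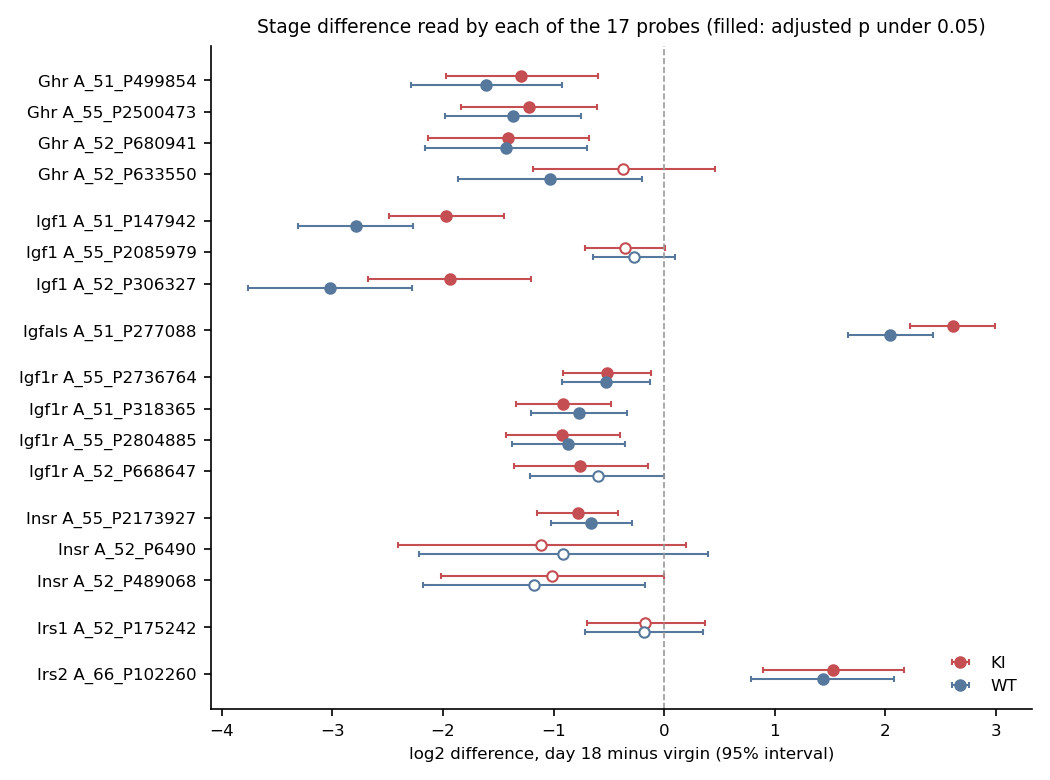
Log2 difference of day 18 minus virgin with its 95% interval (x axis) for each of the 17 probes (y axis, grouped by gene) in knock-in (KI) and wild-type (WT) glands, filled where the adjusted p over probes was under 0.05. The Igf1 probe A_55_P2085979, at -0.35 (KI) and -0.27 (WT), sits apart from the other Igf1 probes, which lie between -3.02 and -1.94.

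Cell type markers moved between the same stages. Of 10 white adipocyte markers, 7 fell in knock-in and 6 in wild-type glands; Plin1, a lipid droplet coat protein, fell by 2.91 and 2.65 and the hormone Adipoq fell by 2.25 and 1.80 on the log2 scale. The mean log2 level over these 10 markers was 3.03 to 4.51 in knock-in and 4.13 to 4.55 in wild-type glands at day 18, against 3.91 to 5.90 in knock-in and 5.52 to 5.78 in wild-type virgins. All 8 fibroblast markers fell in both genotypes, led by Dpt (-3.09 and -2.68) and Lum (-2.19 and -2.14), and all 6 macrophage markers fell, led by Mrc1 (-2.07 and -2.15) and Cd163 (-2.0 and -2.09). Of 6 endothelial markers 4 fell in knock-in and 3 in wild-type glands, among them Tek (-1.87 and -1.67) and Vwf (-1.41 and -1.51).

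Epithelial markers went the other way. Of 10 luminal markers 6 rose in knock-in and 4 in wild-type glands, led by the alveolar transcription factor Elf5 (6.70 and 5.56) and the claudin Cldn7 (4.18 and 2.79). Of 7 basal markers 6 rose in knock-in and 3 in wild-type glands, among them Acta2 (2.67 and 2.40) and Myh11 (2.33 and 2.56), and none of the 7 muscle markers was called. The fibroblast score was 2.84 to 4.32 in knock-in and 3.15 to 3.98 in wild-type glands at day 18, against 3.69 to 5.75 in knock-in and 5.09 to 5.76 in wild-type virgins. The luminal score was 3.28 to 3.83 in knock-in and 3.10 to 3.60 in wild-type glands at day 18, against -3.89 to 2.09 in knock-in and 0.22 to 2.60 in wild-type virgins. With the luminal and muscle scores as covariates, 5 of 7 members were called in each genotype. Of all genes, 25.8% in knock-in and 36.1% in wild-type glands were called in that fit. Igf1r was the member lost, at -0.50 in both (adjusted p = 0.185 in knock-in and 0.0832 in wild-type glands). The part of the fibroblast, macrophage, endothelial and basal signals in the stage differences was not tested.

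With the white adipocyte score as a covariate, Igf1, Igfals and Irs2 stayed called and Ghr, Insr and Igf1r did not. Over all genes 57.6% in knock-in and 52.6% in wild-type glands were called in this fit, beside 43.2% and 41.8% without the covariate. The Igf1 difference was then -0.98 (adjusted p = 0.00402) in knock-in and -1.97 (adjusted p = 2.1e-06) in wild-type glands. Ghr was at -0.11 (adjusted p = 0.814) and -0.63 (adjusted p = 0.137), Insr at -0.31 (adjusted p = 0.248) and -0.26 (adjusted p = 0.29), and Igf1r at 0.05 (adjusted p = 0.854) and -0.05 (adjusted p = 0.85). Igfals was at 3.21 (adjusted p = 1.4e-09) and 2.54 (adjusted p = 8.82e-09), and Irs2 at 2.54 (adjusted p = 2.54e-05) and 2.28 (adjusted p = 2.88e-05). The score itself differs between stages, so this fit removes part of any stage difference of the same shape. Mouse 376 had a score of 3.91, against 5.48 to 5.90 in the other knock-in virgins. The fit with this covariate was not run without mouse 376, so the part of that array in these values was not tested.

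As a description over the 24 arrays, which share their scaling, Ghr followed the adipocyte score with Pearson r = 0.88 and Igf1 the fibroblast score with r = 0.94. After each group's mean was taken out, these were 0.66 and 0.83, and without mice 376, 184 and 198 they were 0.53 and 0.69. Ghr followed the fibroblast score (0.91) and the endothelial score (0.90) at least as closely, with 0.72 for each within groups. Insr followed the endothelial score with r = 0.92, which was 0.75 within groups and 0.56 without those mice. Igfals had r = -0.70 with the adipocyte score over all arrays but 0.67 within groups and 0.71 without those mice. Within groups, then, glands with more adipocyte signal had more Igfals signal, while across stages the order was opposite. The fibroblast and endothelial scores gave Igfals similar values, -0.74 and -0.73 over all arrays and 0.64 and 0.66 within groups. Irs1 and Irs2 had within-group values of 0.57 and 0.61 with the adipocyte score, which were 0.03 and 0.07 without those mice. For Igf1r and Insr the within-group values with that score were 0.61 and 0.57, and 0.21 for each without those mice.

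**Figure D4:**
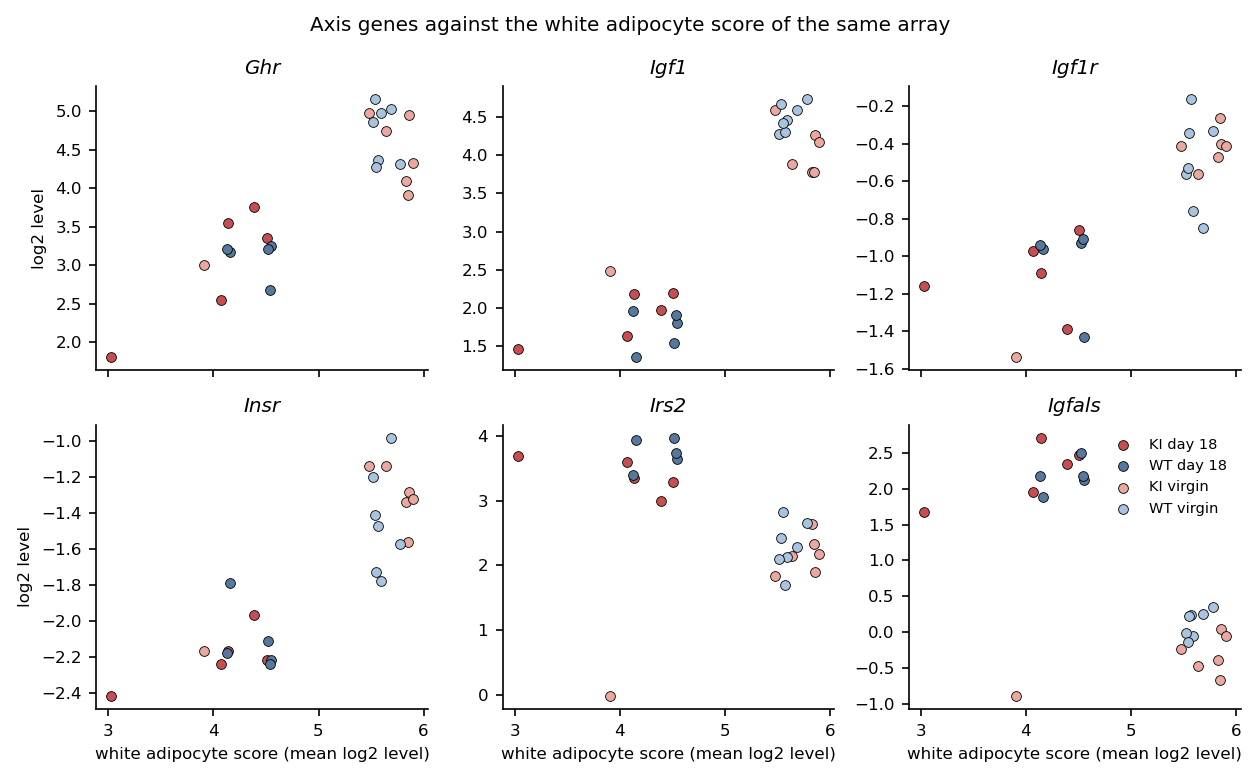
Log2 level of 6 of the genes (y axis) against the mean log2 level of 10 white adipocyte markers on the same array (x axis), coloured by group. Ghr, Igf1, Igf1r and Insr rise with the score over all arrays, and in the Igfals panel the day 18 and virgin glands form separate clouds. With each group's mean taken out, Igfals had Pearson r = 0.67 with the score.

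The comparison of genotypes asked whether the knock-in allele shifted the axis in virgins or at day 18. In limma, 0 of 7 members and 0 of 22382 genes were called in virgins (0% called), at day 18 (0%), for the difference of the genotype effects between stages (0%) and for their average over stages (0%). Unadjusted p under 0.05 was reached by 802, 441, 228 and 1160 genes in that order, and by 3, 0, 2 and 1 members. Over probes, 2 of 35117 were called for the average (0.0057%), neither a member.

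In virgins the member with the largest genotype difference was Igf1, at -0.64 ± 0.23 (95% interval -1.11 to -0.17, adjusted p = 0.702; exact permutation p = 0.0105 over 3432 splits). Igfals differed by -0.50 ± 0.17 (-0.85 to -0.15, adjusted p = 0.702; exact permutation p = 0.00524) and Irs1 by -0.55 ± 0.23 (-1.03 to -0.06, adjusted p = 0.702; exact permutation p = 0.0688). Knock-in virgins averaged -0.38 ± 0.33 for Igfals against 0.12 ± 0.18 in wild-type virgins (SD, n = 7 each), with overlapping ranges. Without mouse 376 the differences were -0.41 for Igf1, -0.42 for Igfals and -0.33 for Irs1, each with adjusted p = 1. Within slides, Igf1 ran from -1.14 to -0.10, Igfals from -0.68 to -0.24 and Irs1 from -0.92 to -0.09.

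The receptors and Irs2 showed less in virgins. Ghr differed by -0.42 ± 0.30 and Irs2 by -0.45 ± 0.28, with exact permutation p = 0.188 and 0.249, and without mouse 376 by -0.21 and -0.13. Igf1r differed by -0.07 ± 0.17 (95% interval -0.43 to 0.29) and Insr by 0.03 ± 0.16 (-0.30 to 0.36). The signs of Ghr, Igf1r and Insr differed between slides.

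At day 18, among the genes' own probes, Irs1 had the largest genotype difference, -0.53 ± 0.28 (95% interval -1.11 to 0.04, adjusted p = 1; exact permutation p = 0.0159 over 252 splits). It averaged 2.93 ± 0.17 in knock-in and 3.46 ± 0.26 in wild-type glands (SD, n = 5 each), and the ranges overlapped between 3.15 and 3.18. The difference had the same sign on each slide, from -0.65 to -0.44. Irs2 differed by -0.35 ± 0.34 (exact permutation p = 0.0556), Igf1 by 0.17 ± 0.27 and Igfals by 0.06 ± 0.20. The second Igf1 probe A_52_P306327, dim in 2 of 5 wild-type glands, differed by 1.0 ± 0.39 (adjusted p = 1 over probes; exact permutation p = 0.0556). Ghr, Insr and Igf1r lay between -0.10 and -0.06, with 95% intervals no wider than -0.84 to 0.63.

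Averaged over stages, Irs1 differed between knock-in and wild-type glands by -0.54 ± 0.18 on the log2 scale (adjusted p = 0.651) and the other 6 members lay between -0.40 and -0.03. The knock-in minus wild-type difference at day 18 minus that in virgins was 0.82 ± 0.35 for Igf1 (95% interval 0.09 to 1.55) and 0.56 ± 0.26 for Igfals (0.02 to 1.10), each with adjusted p = 1. For both genes the genotype difference was negative in virgins and nearer to 0 at day 18. Without mouse 376 these were 0.59 and 0.48. On simulated data the same fit recovered 44% of genes changed by 1 and 84% of genes changed by 2 on the log2 scale in virgins, and 34% and 86% at day 18, so a change of the size seen in these members could be missed.

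Around the members, 89 of 96 listed genes of the axis were tested. Between stages 28 were higher and 12 lower in knock-in glands, and 19 were higher and 15 lower in wild-type glands, with list medians of 0.21 and -0.05. The called share of the list, 44.9% in knock-in and 38.2% in wild-type glands, was near the 43.2% and 41.8% of all genes. Without mouse 376 the knock-in counts were 28 and 21, 55.1% of the list beside 55.3% of all genes. The genotype comparisons called 0 of the 89. Scaling decides part of this. With spike-in scaling the median of all genes shifted to -0.78 in knock-in and -0.91 in wild-type glands, and the counts were 9 higher and 44 lower in knock-in and 4 higher and 62 lower in wild-type glands. Over all genes 58.2% in knock-in and 66.2% in wild-type glands were then called. Of the rises, 11 of 28 and 8 of 19 then turned sign, and those named below are marked.

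Among other ligands and receptors, the 6 tested genes split into 3 higher, 1 lower and 2 not called in each genotype. Igf2, the fetal growth factor, was higher by 1.39 in knock-in (adjusted p = 0.0414) and by 1.80 in wild-type glands (adjusted p = 0.00974). Igf2r, which clears IGF2, was higher by 1.06 and 0.85, with the wild-type value at -0.07 under spike-in scaling. Ins2, an insulin gene, was well above background in 5 of 5 wild-type glands at day 18 and in 0 of 7 wild-type virgins, and was at least 4.5-fold higher at day 18 (adjusted p = 0.000614). In knock-in glands it was called higher (adjusted p = 0.0133) and was well above background in 4 of 5 at day 18 and 1 of 7 virgins, so no fold is given. Insrr, the insulin receptor-related receptor, was well above background in 0 of 5 wild-type glands at day 18 against 7 of 7 virgins, at least 2.45-fold lower (adjusted p = 0.0109). In knock-in glands it was called lower (adjusted p = 0.0472) and was well above background in 2 of 5 at day 18 and 7 of 7 virgins, so no fold is given. Ins2 passed the filter on dim signals only through the day 18 groups, and Insrr only through the virgin groups. Their calls, counted above, thus lean on the stage that let them in. Gh, Ins1 and Ghsr were well above background on at most 2 of 24 arrays and were not tested.

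In the JAK2-STAT5 arm and its feedback, 6 of 17 genes were higher and 2 lower in knock-in glands, and 4 were higher and 3 lower in wild-type glands. Cish rose by 3.27 ± 0.49 in knock-in (9.66-fold, adjusted p = 1.09e-05) and by 2.40 ± 0.49 in wild-type glands (5.28-fold, adjusted p = 0.000367). Stat5a rose by 1.43 and 0.99 and Stat3 by 1.48 and 1.00, while Socs1, another feedback inhibitor, fell by 1.43 and 1.84. Ptpn6, a phosphatase, fell by 0.62 and 0.70. Jak2 (0.14 and -0.30), Stat5b (0.56 and 0.54) and Socs2 (0.38 and -0.26) did not pass in knock-in or wild-type glands.

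Among the carriers of IGFs and their proteases, 3 of 9 tested genes were higher and 2 lower in knock-in glands, and 2 were higher and 3 lower in wild-type glands. Stc1, whose product blocks the proteases that free IGF, rose by 2.83 in knock-in glands, where it was well above background in 3 of 7 virgins, and by 2.89 (7.41-fold) in wild-type glands. Igfbp2 rose by 2.66 and 2.46, while Igfbp6 fell by 2.21 and 2.35 and Igfbp4 fell by 2.17 and 1.94. Igfbp3 and Igfbp5, the carriers that join IGFALS in the blood complex, did not pass: Igfbp3 was at 0.12 and -0.60 and Igfbp5 at 0.68 and -0.08. These 2 carriers thus gave no call beside the rise of Igfals.

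Of 11 adaptors, 2 were higher and 3 lower in each genotype. Irs3, a docking protein of rodent fat cells, fell by 2.26 in knock-in (4.78-fold, adjusted p = 2.64e-07) and by 2.17 in wild-type glands (4.5-fold, adjusted p = 4.81e-07). Sh2b2, an adaptor of the insulin receptor, fell by 2.33 and 2.05. Gab1 (0.76 and 0.91) and Dok1 (0.60 and 0.60) were higher, and both turned sign under spike-in scaling in both genotypes.

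In the arm from PI3K to FOXO, 8 of 19 genes were higher and 3 lower in knock-in glands, and 5 were higher and 3 lower in wild-type glands. The AKT kinases parted: Akt1 rose by 1.73 (3.31-fold) and 1.45 (2.73-fold), and Akt2, the main form in insulin-responsive tissues, fell by 1.42 and 1.38. Slc2a4, the insulin-regulated glucose transporter GLUT4, fell by 2.04 and 1.83. Trib3, an AKT-binding pseudokinase, rose by 2.65 and 2.20. In the mTOR arm, 4 of 13 genes were higher in knock-in and 2 in wild-type glands with none lower; Deptor, an mTOR inhibitor, rose by 1.04 and 1.19, while Rheb (0.76 in knock-in glands) and Eif4ebp2 (0.70 and 0.71) turned sign under spike-in scaling. In the RAS-MAPK arm, 2 of 14 were higher and 1 lower in knock-in glands, and 1 was higher and 2 lower in wild-type glands. Spry4, a feedback inhibitor, fell by 0.76 and 1.00, and Dusp6, an ERK phosphatase, fell by 0.71 in wild-type glands. Map2k2, a kinase that activates ERK, was higher by 0.64 and 0.62 but turned sign under spike-in scaling.

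The genes whose log2 levels ran most like each member over the 24 arrays are given as a description. They were Sh3pxd2a, Ttyh2 and Steap4 for Igf1 (Pearson r = 0.98 each) and Rogdi, Vps37b and Rac3 for Igfals (0.98 each). With each group's mean taken out, r was 0.87, 0.84 and 0.85 for Igf1 and 0.80, 0.53 and 0.67 for Igfals. The genes most like Ghr were Qk (0.95), Tiparp (0.94) and Eps8 (0.94), and Qk was also among those of Insr, with Ldb2 and Jag1 (0.93 each). Igf1r ran most like Stim1 (0.93), and its next genes carry no symbol in the files. Irs2 ran with the poly(A)-binding protein gene Pabpc1 (0.97) and the initiation factor gene Eif2d (0.96). Irs1 had the weakest likeness, with Lcmt1, Itpr1 and Sephs2 (0.84 each), which fell to between 0.73 and 0.76 without mice 376, 184 and 198.

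**Figure D5:**
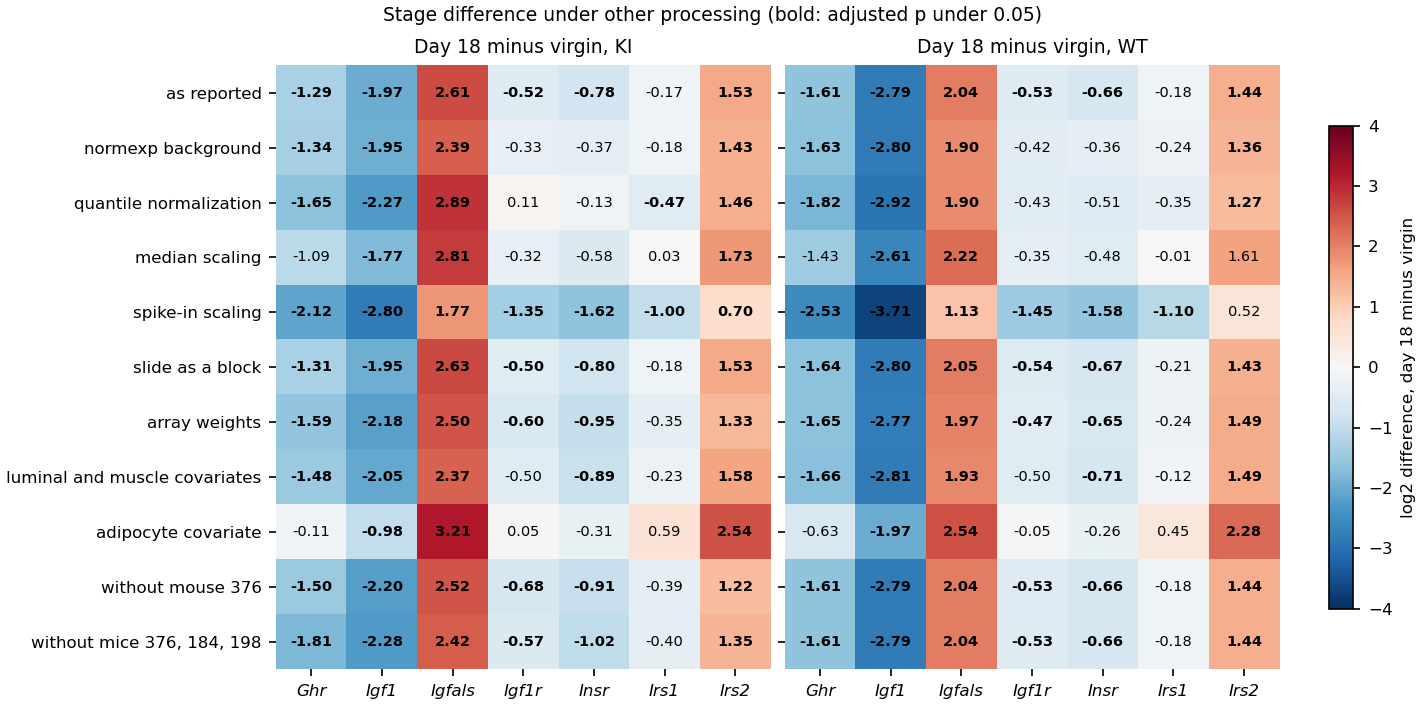
Log2 difference of day 18 minus virgin for the 7 genes (columns) in knock-in (KI, left) and wild-type (WT, right) glands as reported and under other processing or with arrays left out (lines), bold where the adjusted p was under 0.05. Igf1 and Igfals are bold in every line, and Ghr, Igf1r and Insr are not bold in the line with the adipocyte covariate.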

How the data were processed

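Per the labels' protocols, total RNA from frozen glands was labelled with Cy3 and hybridized to 1-colour Agilent mouse arrays; the labels also name the molecule as polyA RNA. Per the submitters' processing notes, signals were extracted with Agilent Feature Extraction 12.0.3.2. The deposited scanner files hold background-subtracted processed signals as intensity, with no scaling between arrays. The deposited value table holds log10 of the same signals and was used as an alternative. Here outlier spots were set to missing, replicate spots averaged on the log2 scale and each array's 75th percentile subtracted; deposited intensity had not been put on a log2 scale. A probe was kept when some group had it well above background in 80% or more of its mice (35117 of 56605), and the probe of the highest mean stood for a gene (22382 genes; 162 missing values, none in a member). limma 3.58.1 in R 4.3.3 fitted 4 group means to 24 arrays. Exact two-sided permutation tests enumerated all splits of the mice. A value after ± is a standard error (SE) where SD is not written. Every mouse number in the labels is different, so arrays were taken as separate mice. The number of arrays limits the precision. Fits were tested on simulated data. The members, gene lists, marker lists, naming rule (up to 2 called rises and 2 falls per list, 3 most alike genes per member) and most alternatives were chosen with earlier results of these data known. Promoter sequences are RefSeq's on GRCm38.p6; probe coordinates are those of the files on mm9, and no annotation of that build was used. Figures were drawn with matplotlib 3.10.9 in Python 3.11.15. One called gene of the pathway lists is counted but not reported here by name.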

Additional observations from a re-analysis of the deposited data

Results flagged for a closer look

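A mouse far from the rest of its group (Dixon's test at 95%) was looked for in 68 sets of values, the 17 member probes in 4 groups. Of these, 12 stood out, where chance gives about 1 in 20. The sets share arrays and genes and are not independent, so this rate is only a rough guide to the count. Knock-in virgin mouse 376 accounted for 8 of the 12. It was lowest at log2 levels of 2.48 for the Igf1 probe A_51_P147942, 1.27 and 2.24 for the Ghr probes A_52_P680941 and A_55_P2500473, -1.54 for the Igf1r probe A_55_P2736764, -2.17 for the Insr probe A_55_P2173927 and -0.02 for the Irs2 probe A_66_P102260. It was highest at -1.50 for the Igf1r probe A_52_P668647 and -0.67 for the Insr probe A_52_P6490. On this array, then, brighter probes of the axis read low and dim probes read high; its negative-control signal of 332 stands beside these values, and its part in them was not tested. The others were knock-in virgin mouse 384, highest at 0.68 for the Igf1 probe A_55_P2085979, and 3 wild-type mice at day 18: mouse 235, lowest at 2.67 for the Ghr probe A_51_P499854, mouse 233, lowest at -1.43 for the Igf1r probe A_55_P2736764, and mouse 206, lowest at -4.93 for the Igf1r probe A_55_P2804885.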

How the results depend on the processing

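Igf1 and Igfals stayed called between stages in both genotypes under all 42 alternatives run for each, and Irs2 stayed called in knock-in glands under all 42. The count of members called between stages was 6 as reported. It was 3 in knock-in and 2 in wild-type glands with median scaling and 3 in each with the white adipocyte covariate. Over all genes, median scaling called 22.6% in knock-in and 23.8% in wild-type glands. The adipocyte covariate called 57.6% and 52.6% of all genes. With single mice left out the member count was 5 to 6 in knock-in and 5 to 6 in wild-type glands, and 0 to 0 in each genotype comparison. The single loss was Igf1r, uncalled without knock-in mice 196, 198, 251, 313, 384, 184, 239 or 183, and without wild-type mice 318, 320 or 233. Its knock-in value turned to 0.11 with quantile normalization and to 0.05 with the adipocyte covariate; the cause was not tested. Igf1r and Insr were uncalled in both genotypes with normexp background correction, quantile normalization and median scaling. With median scaling Ghr was uncalled at -1.09 and -1.43 (adjusted p = 0.161 and 0.0582) and, in wild-type glands, Irs2 at 1.61 (0.0546). With spike-in scaling on 7 probes Irs1 was called at -1.0 and -1.10 (adjusted p = 0.00437 and 0.00178) and the wild-type Irs2 value was 0.52 (0.129). With median scaling 5068 genes were called in knock-in and 5316 in wild-type glands, against 9658 and 9357; spike-in scaling called 14807 and array weights 14076 in wild-type glands, and luminal and muscle covariates called 5771 in knock-in glands. Slide as a block left all 6 calls in each genotype. The alternatives without mice 198 and 376, and with the percentile over probes bright on all arrays, were chosen after seeing the data; each left 6 calls. No paired analysis was possible because the labels give every mouse its own number, shared by no other group.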
